A study of Mus musculus with 30 samples.

Results

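Late and early carcinoma cells from the lungs of BALB/c mice were compared by RNA sequencing. The late libraries were the 5 labelled macro-met, taken from lung on day 21 (4 libraries) or day 23 (macro-met 5), and they were set against the 5 labelled DTC, taken from lung on day 7. These 10 libraries were chosen by strain, organ and stage in their labels, out of 30 libraries in 6 groups of 5. All 17774 genes that passed a filter on low counts were compared. Both groups consisted of 4T1 cells, a carcinoma line from the mammary gland of a BALB/c mouse, tagged with the red fluorescent protein tdTomato, and 500000 of them had been injected into the tail vein of female mice. Lungs were digested in collagenase IV with DNase I and Y-27632, a ROCK inhibitor, red blood cells were lysed, and DAPI-negative, CD45-negative, tdTomato-positive single cells were sorted. NSG macro-mets (days 19 and 20) and NSG DTC (day 7), from mice without T, B and NK cells, gave the same comparison in a second host, and BALB/c tumours (200000 cells in the mammary fat pad, days 21 and 22) gave a level outside the lung. Cells reached the lung through the tail vein and not from a primary tumour. The labels do not say whether libraries came from separate animals, so p-values measure the spread between libraries, pooled over all 6 groups. All 5 DTC have the number 25 in their titles and the macro-mets have 57 or 58. The labels do not say what this number stands for. Late against early therefore cannot be told apart from a difference between these title numbers.

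A carcinoma cell that lodges in the lung first meets resident epithelium, endothelium and innate immune cells as a single cell or small cluster, and later sits in a mass of its own kind. In dense tissue, prolyl hydroxylases that need oxygen stop marking the transcription factor HIF for destruction, and HIF then induces genes of glucose use, pH control and vessel growth. Inflammatory cytokines act through NF-kB, interferons through STAT and IRF factors, and interleukin-6 family cytokines through STAT3, which in liver drives the acute phase proteins. Cells of the 4T1 line keep epithelial traits such as keratins and E-cadherin alongside mesenchymal ones such as fibronectin.

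Promoters of the members with a match and the largest called changes, 3 in each of 3 programmes, are shown here because HIF, the interferon-activated factors and NF-kB are known to bind the motifs in them. Each is a 100-base stretch of the RefSeq promoter (GRCm38.p6), written 5′ to 3′ on the gene's strand, with matches in capitals. For HIF the letters searched were ACGTG on either strand within 250 bases before the start; where the match is the palindrome CACGTG, which other factors also bind, all 6 letters are in capitals. The genes are Bnip3 (chr7:138909562-138909661, minus strand), a mitophagy receptor, Ankrd37 (chr8:45999851-45999950, minus strand), an ankyrin repeat protein, and Ak4 (chr4:101419453-101419552, plus strand), a mitochondrial adenylate kinase.
Bnip3: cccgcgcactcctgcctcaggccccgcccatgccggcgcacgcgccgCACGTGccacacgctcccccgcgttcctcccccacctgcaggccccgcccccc
Ankrd37: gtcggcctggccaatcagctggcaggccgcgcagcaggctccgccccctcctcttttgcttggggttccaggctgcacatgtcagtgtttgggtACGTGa
Ak4: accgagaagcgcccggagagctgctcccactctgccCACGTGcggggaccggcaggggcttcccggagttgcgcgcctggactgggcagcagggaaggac
For the interferon-stimulated response the letters were TTTC, any 2 bases, then TTTC, on either strand. The genes are Ifit3 (chr19:34583362-34583461, plus strand) and Ifit1 (chr19:34640759-34640858, plus strand), antiviral RNA-binding proteins, and Oas1a (chr5:120907526-120907625, minus strand), an oligoadenylate synthetase; the copy Ifit3b has the same stretch as Ifit3 and is not repeated.
Ifit3: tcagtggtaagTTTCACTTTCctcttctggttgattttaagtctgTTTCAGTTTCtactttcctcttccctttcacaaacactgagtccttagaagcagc
Ifit1: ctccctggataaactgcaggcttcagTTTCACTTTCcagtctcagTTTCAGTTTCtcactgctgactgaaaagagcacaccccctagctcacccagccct
Oas1a: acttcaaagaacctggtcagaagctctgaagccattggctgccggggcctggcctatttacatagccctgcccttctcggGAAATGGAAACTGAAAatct
For NF-kB the letters were GGG, any 2 bases, then TTTCC, on either strand. The genes are Tnfaip3 (chr10:19015411-19015510, minus strand), the ubiquitin-editing enzyme A20, Nfkb2 (chr19:46304637-46304736, plus strand), a subunit, and Nfkbia (chr12:55492648-55492747, minus strand), the inhibitor IkB-alpha.
Tnfaip3: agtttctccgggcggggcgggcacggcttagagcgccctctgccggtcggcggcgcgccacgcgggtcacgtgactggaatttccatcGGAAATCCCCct
Nfkb2: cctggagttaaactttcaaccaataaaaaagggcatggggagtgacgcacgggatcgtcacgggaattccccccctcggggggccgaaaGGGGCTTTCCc
Nfkbia: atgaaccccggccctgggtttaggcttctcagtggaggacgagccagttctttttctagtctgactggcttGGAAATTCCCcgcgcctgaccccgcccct

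In the hypoxia list, 26 of 31 tested genes had a promoter in the table, and ACGTG stood in 21 of their 38 promoters (55.3%), against 16.6% of all 32851 promoters. The interferon letters stood in 10 of 27 promoters (37%) of the type I interferon list, against 2.98% of all promoters. The NF-kB letters stood in 7 of 26 promoters (26.9%) of the NF-kB list, against 1.41% of all. A match is a description of the letters, since the lists hold textbook targets of these factors.

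Total counts ran between 33649294 and 61780104 in macro-mets and between 35162230 and 60327229 in DTC, and levels are given as CPM, counts scaled to the effective library size. The sort was for tumour cells, and the 10 markers of 4T1 identity (Epcam, keratins, E-cadherin and others) summed to 8654 to 12310 CPM in macro-mets and 10540 to 12850 CPM in DTC 1 to 4, with 14590 CPM in DTC 5. Ptprc, which encodes CD45, was at most 1.04 CPM in any macro-met and 3.90 CPM in DTC 1, the highest of the DTC. The list of 5 leucocyte common and sort markers went the other way as a sum. It reached 108.8 to 252.5 CPM in macro-mets, against 67.9 to 91.78 CPM in DTC, with 1 member called higher and 0 lower. The other 4 members were not called, and the median log2 change of the list was -0.511. By mean log2 CPM the groups overlapped, at 0.974 to 2.383 in macro-mets and 1.386 to 3.141 in DTC. Lung RNA was uneven: the 15 tested alveolar epithelium markers summed to 359 to 385 CPM in macro-mets and 440, 507 and 522 CPM in DTC 3, 5 and 4, but to 3948 CPM in DTC 1 and 1958 CPM in DTC 2. Endothelial markers (774 and 397 CPM) and macrophage markers (789 and 308 CPM) were also highest in DTC 1 and DTC 2. Fibroblast and mural markers ran from 403 to 623 CPM in macro-mets and from 174 to 634 CPM in DTC. DTC 5 held the smallest share of mitochondrial-genome counts, 0.33%, against 0.862% to 1.12% in macro-mets and 1.14% to 1.93% in the other DTC. Where leaving out DTC 1 and DTC 2 ended a call or moved a fold change by over 1.5 times, the value without them stands beside the result. For Col1a2 it stands in the section on processing. In these bulk libraries, fewer cells of a type and less RNA per cell cannot be told apart.

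**Figure D1:**
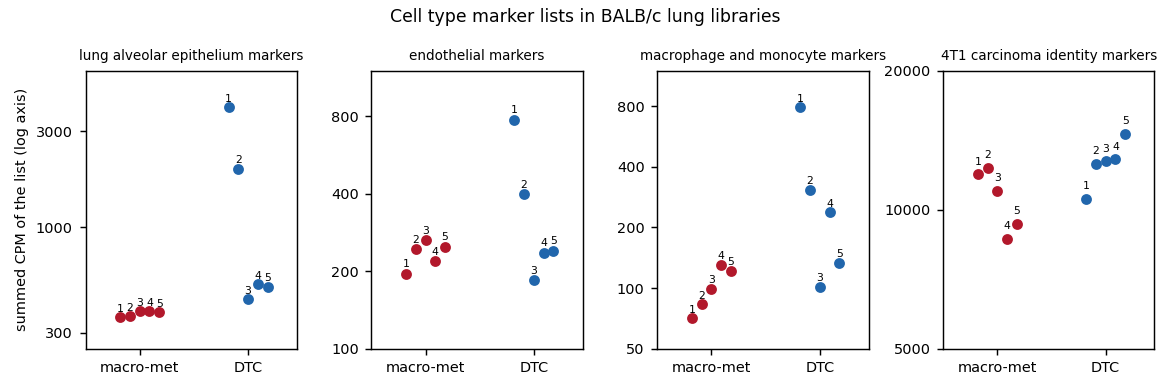
Summed CPM (log axis) of 4 marker lists in each BALB/c macro-met (red, left) and DTC (blue, right) library, numbered by replicate. DTC 1 and DTC 2 stood above the other 8 libraries for alveolar, endothelial and macrophage markers, while the 4T1 markers differed far less.

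Of the 17774 genes, 5471 (30.8%) were called, that is, had a Benjamini-Hochberg adjusted p under 0.05 in edgeR's quasi-likelihood test over all 30 libraries. In macro-mets 2949 genes (16.6%) rose and 2522 (14.2%) fell, so 53.9% of the calls were rises. This share depended on the scaling: it was 47.3% with DESeq2, 48.4% with RLE scaling and 48.5% without the filter on low counts, and with the authors' TPM values on a log2 scale it was 68.3% (pseudocount 1) or 69.1% (pseudocount 0.1). At least 2-fold rises numbered 937 (5.27%) and at least 2-fold falls 978 (5.5%). For 2238 genes (12.6%) every macro-met lay above every DTC, and for 1797 (10.1%) every macro-met lay below. The median log2 fold change over all genes was -0.04. Changes below are log2 fold changes, macro-met over DTC, ± SE, with n = 5 in each group. Counts of list members that rose or fell are to be read against these shares of all genes, 16.6% for rises and 14.2% for falls.

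**Figure D2:**
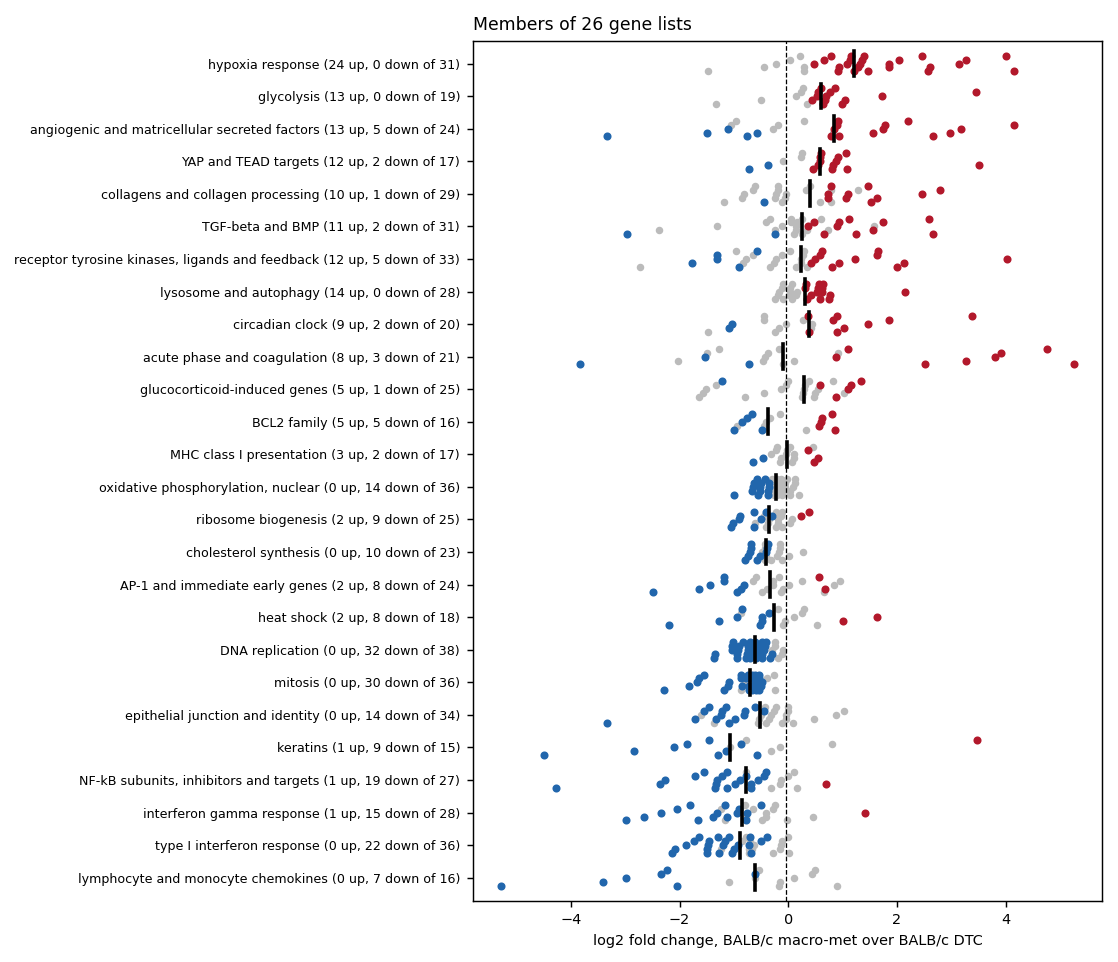
Log2 fold changes of the tested members of 26 gene lists (rows). Red points rose and blue points fell at an adjusted p under 0.05, grey points were not called, black bars are list medians and the dashed line is the median of all genes (-0.04). The hypoxia list lay to the right, with a median of 1.205 and 24 rises among 31 genes, and the type I interferon and keratin lists lay to the left.

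Genes of the hypoxia response rose in macro-mets: 24 of 31 tested rose and 0 fell, against 16.6% and 14.2% of all genes, with a median change of 1.205. Bnip3, which targets mitochondria for removal and lies on chromosome 7 from 138890836 to 138909519 (GRCm38), stood at 75.4, 87.7, 62.4, 74.4 and 66.5 CPM in macro-mets 1 to 5, against 7.42, 5.27, 3.15, 3.40 and 3.63 CPM in DTC 1 to 5. The groups were far apart, and the change was 4.00 ± 0.34 (adjusted p = 6.02e-10). BALB/c tumours averaged 54.0 ± 20.9 CPM (SD, n = 5). Adm, the vasodilator peptide adrenomedullin, stood at 49.3, 37.8, 18.7, 24.8 and 24.2 CPM in macro-mets, against 2.93, 1.2, 1.23, 1.73 and 1.58 CPM in DTC. Every macro-met was above every DTC, and macro-mets 1 and 2 were the highest (4.16 ± 0.41, adjusted p = 9.00e-09). Ankrd37 and Ak4, whose promoters are printed above, rose by 3.26 ± 0.30 and 3.15 ± 0.27 on the log2 scale, with averages of 11.3 and 18.9 CPM in macro-mets against 1.18 and 2.14 CPM in DTC.

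Enzymes that feed or follow the oxygen response moved with them. Pdk1, the kinase that holds pyruvate back from mitochondria, averaged 92.3 ± 10.1 CPM in macro-mets and 15.5 ± 2.39 CPM in DTC (SD, n = 5 each; 2.58 ± 0.20, adjusted p = 6.37e-11). The oxygen sensors Egln1 (1.21 ± 0.18) and Egln3 (1.27 ± 0.18) rose too, and Egln3 was already at 98.7 to 155 CPM in DTC, against 283 to 356 CPM in macro-mets. Carbonic anhydrases, which handle acid, followed: Car9 had 90, 130, 115, 118 and 85.9 CPM in macro-mets, against 13.4, 18.1, 15.3, 13.3 and 28.0 CPM in DTC, and Car12 rose by 1.85 ± 0.19. Prolyl hydroxylases of collagen rose by 1.47 ± 0.19 for P4ha1 and by 2.46 ± 0.22 for P4ha2. The glucose transporter gene Slc2a1 rose by 1.16 ± 0.24, a call that was lost with the lung marker level as a covariate (lowest of all alternatives 0.81). Vegfa, the vascular growth factor, was not called, at 175 ± 33.0 CPM in macro-mets and 144 ± 22.2 CPM in DTC (0.28 ± 0.16, adjusted p = 0.189). In glycolysis 13 of 19 genes rose and 0 fell (median 0.61); 6 of them were called with the lung marker covariate. Eno2 (3.45 ± 0.38) and Aldoc (1.72 ± 0.19), isoforms of enolase and aldolase, rose more than the abundant Aldoa (0.98 ± 0.20) and Pgk1 (1.04 ± 0.17).

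Plasma proteins made mainly by the liver were among the largest rises. Lbp, the lipopolysaccharide-binding protein (chromosome 2 from 158306493 to 158332852), stood at 541, 743, 673, 830 and 791 CPM in macro-mets, against 23.1, 35.5, 26.7, 17.4 and 30.1 CPM in DTC. No macro-met came near a DTC, and the change of 4.75 ± 0.30 (adjusted p = 2.60e-12) amounted to 414 ± 84.0 TPM in macro-mets and 14.2 ± 4.04 TPM in DTC. F5, coagulation factor V, had 19.0, 30.3, 69.8, 154 and 81.7 CPM in macro-mets, against 2.24, 2.85, 1.83, 2.45 and 0.0859 CPM in DTC. Its groups did not overlap, macro-met 4 was the highest and DTC 5 was close to 0 (5.25 ± 0.62, adjusted p = 2.37e-07). The serum amyloid A genes, classical acute phase reactants, were spread within macro-mets: Saa3 had 16.9, 22.7, 51.3, 112 and 106 CPM, against 6.02, 4.42, 1.40, 8.57 and 11.4 CPM in DTC. Macro-mets 4 and 5 were highest and macro-met 1 lowest, and all 5 lay above the DTC (3.27 ± 0.58, adjusted p = 8.29e-05). Saa1 (3.80 ± 0.64) and Saa2 (3.92 ± 0.56) are near-identical copies whose reads may be split between them.

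Complement genes went in both directions. Masp1, a protease of the lectin pathway, averaged 81.6 ± 17.2 CPM in macro-mets and 8.01 ± 3.11 CPM in DTC (3.35 ± 0.22, adjusted p = 2.60e-12), and C4b rose by 2.52 ± 0.34. C3, the central component, fell: it had 347, 257, 306, 435 and 327 CPM in macro-mets, against 710, 724, 549, 1669 and 1189 CPM in DTC. The highest macro-met was below the lowest DTC, and DTC 4 and DTC 5 stood out upward (-1.53 ± 0.31, adjusted p = 0.000389). Thbd, thrombomodulin, also fell (-3.83 ± 1.01), but without DTC 1 and DTC 2 its change was -1.44 and no longer called. In the whole list of 21 acute phase and coagulation genes 8 rose and 3 fell, with a median of -0.10. The factor that drives such genes in liver, Stat3, rose by 0.93 ± 0.14 (adjusted p = 4.35e-06), to 291 ± 30.7 CPM in macro-mets, against 153 ± 25.9 CPM in DTC. Its feedback inhibitor Socs3 rose by 1.41 ± 0.23 (adjusted p = 2.56e-05), with overlapping groups.

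Genes of NF-kB signalling fell: 19 of 27 were called lower and 1 higher, with a median of -0.79. Tnf, the cytokine that both activates NF-kB and is induced by it, had 9.12, 16.5, 8.95, 21.7 and 18.2 CPM in macro-mets, against 50.6, 61.2, 73.8, 81.3 and 116 CPM in DTC. The groups did not overlap and DTC 5 was the highest (-2.36 ± 0.34, adjusted p = 3.99e-06); tumours averaged 6.00 CPM. Among inhibitors of the pathway, Nfkbia had 175, 267, 222, 232 and 193 CPM in macro-mets, against 414, 484, 445, 473 and 710 CPM in DTC, again highest in DTC 5 (-1.21 ± 0.22, adjusted p = 7.36e-05). Tnfaip3 had 36.5, 77.2, 99.6, 147 and 85.6 CPM in macro-mets, against 312, 334, 314, 241 and 272 CPM in DTC. Every macro-met was below every DTC, with macro-met 1 the lowest (-1.72 ± 0.32, adjusted p = 0.000159). Of the subunits, Nfkb2 (-1.55 ± 0.16) and Relb (-0.98 ± 0.15) of the non-canonical arm fell, Nfkb1 was not called (0.15 ± 0.10, adjusted p = 0.263), and Rela fell by 0.41 ± 0.11 on the log2 scale, a value that was -0.27 without DTC 5. The Rela call was lost on the log2 TPM scales and with macro-mets 2, 3 and 5 alone. Exons of Nfkb2 overlap exons of Psd on the opposite strand (6.52% of its exonic length). Vcam1, an adhesion molecule, was the member that rose (0.69 ± 0.14).

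Secreted attractants of leucocytes fell with them. Of 11 neutrophil chemokines and colony-stimulating factors 7 fell and 2 rose (median -1.19). Cxcl1, a ligand of the neutrophil receptor CXCR2, had 219, 374, 395, 535 and 399 CPM in macro-mets, against 935, 1050, 985, 898 and 1361 CPM in DTC (-1.44 ± 0.30, adjusted p = 0.000579). It remained abundant in macro-mets, although macro-mets and DTC did not overlap. BALB/c tumours ran from 113 to 501 CPM, with a mean of 259 CPM, and overlapped the macro-mets. Csf1, which sustains macrophages, rose by 0.60 ± 0.16, whereas Csf3, the granulocyte factor, fell (-0.99 ± 0.26); the groups of both overlapped. Both calls were lost, and Cxcl2 (-2.19 ± 0.53) too, when only the macro-mets of title number 58 (macro-mets 1 and 4) were kept. Of 16 lymphocyte and monocyte chemokines 7 fell and 0 rose. Cxcl16, ligand of CXCR6 on T and NK cells, had 14.1, 19.8, 15.4, 19.8 and 20.8 CPM in macro-mets, against 84.9, 61.5, 50.6, 114 and 112 CPM in DTC (-2.23 ± 0.18, adjusted p = 8.44e-11). Macro-mets were tightly grouped, and every DTC was above them. Ccl5 fell by 3.40 ± 0.57 on the log2 scale, to 1.09 ± 0.456 CPM in macro-mets, against 11.5 ± 4.17 CPM in DTC. Macrophage and neutrophil markers summed to 70.8 to 131 and 3.17 to 16.2 CPM in macro-mets. They were higher in DTC 1 and DTC 2 (789 and 308, 81.9 and 46.0 CPM). In DTC 3, 4 and 5 they were 101, 239 and 134 CPM, and 14.5, 30.0 and 12.2 CPM, so the groups overlapped. By mean log2 CPM, macrophage markers in DTC 2 (-0.194) lay below every macro-met (-0.153 to 1.161). The part of such cells in these falls was not tested, and the NF-kB count without DTC 1 and DTC 2 was 18 lower and 1 higher.

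Interferon-stimulated genes were lower in macro-mets, less evenly. Of 36 type I interferon targets 22 fell and 0 rose (median -0.89). Isg15, the ubiquitin-like modifier, had 16.9, 19.0, 25.4, 18.8 and 18.7 CPM in macro-mets, against 66.6, 40.4, 25.4, 67.2 and 40.3 CPM in DTC. DTC 1 and DTC 4 were the highest and DTC 3 stood level with macro-met 3 (-1.28 ± 0.21, adjusted p = 2.98e-05). Ifit3 and Oas1a showed the same order of DTC libraries: Ifit3 had 4.79, 5.30, 7.44, 5.54 and 5.29 CPM in macro-mets, against 23.8, 11.9, 7.53, 25.1 and 11.6 CPM in DTC. Oas1a averaged 32.2 ± 2.53 CPM in macro-mets and 88.7 ± 32.8 CPM in DTC (-1.46 ± 0.17, adjusted p = 1.23e-07). Reads of Oas1a and Oas1g, and of Ifit3 and Ifit3b, may be shared between copies. The count of falls was 9 with the lung marker level as a covariate and 12 with macro-mets 1 and 4 alone.

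Targets of interferon gamma fell in 15 of 28 and rose in 1 (median -0.85), but the count was 8 without DTC 4 and 9 without macro-met 1. Cxcl10, ligand of CXCR3 on T cells, had 8.51, 15.7, 18.5, 20.7 and 16.8 CPM in macro-mets, against 84.5, 82.9, 24.0, 114 and 102 CPM in DTC. DTC 3 was far below the other DTC and still above every macro-met (-2.35 ± 0.37, adjusted p = 1.69e-05). Its relatives Cxcl9 (-2.04 ± 0.51, not called with the lung marker covariate) and Cxcl11 (-2.99 ± 0.38) fell too, with overlapping groups. Irf1, the early transcription factor of this pathway, averaged 322 ± 57.9 CPM in macro-mets and 725 ± 151 CPM in DTC (-1.17 ± 0.19), and the inhibitor Socs1 fell by 1.81 ± 0.22 on the log2 scale.

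MHC class I genes did not follow the interferon targets. H2-K1 (chromosome 17 from 33996017 to 34000347) had 2941, 3361, 3005, 2639 and 2884 CPM in macro-mets, against 2284, 1769, 1754, 2528 and 2407 CPM in DTC. The groups were close but did not overlap (0.47 ± 0.12, adjusted p = 0.00384). H2-D1 rose by 0.54 ± 0.13 (adjusted p = 0.00152), to 4569 ± 507 CPM in macro-mets, against 3133 ± 517 CPM in DTC. These are polymorphic paralogs that can share reads, and both calls were lost with the lung marker covariate and with macro-mets 1 and 4 alone. B2m, their light chain, rose by 0.37 ± 0.12 with overlapping groups and was not called without DTC 2, DTC 3 or DTC 5. In the class I list of 17 genes 3 rose (17.6%) and 2 fell (11.8%), near the 16.6% and 14.2% of all genes (median -0.02). None of 10 class II genes was called by edgeR, with 0 at an unadjusted p under 0.05, none by DESeq2 and 1 by limma voom. Cd74, the class II invariant chain, stood at 807 ± 242 CPM in macro-mets and 629 ± 339 CPM in DTC. Serpinb9, an inhibitor of granzyme B, fell by 0.79 ± 0.17 on the log2 scale, not called with the lung marker covariate (-0.44), and Serpina3g, a serpin from a cluster of near-identical genes, by 4.15 ± 0.55, while Serpine2, protease nexin, rose by 3.30 ± 0.25.

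**Figure D3:**
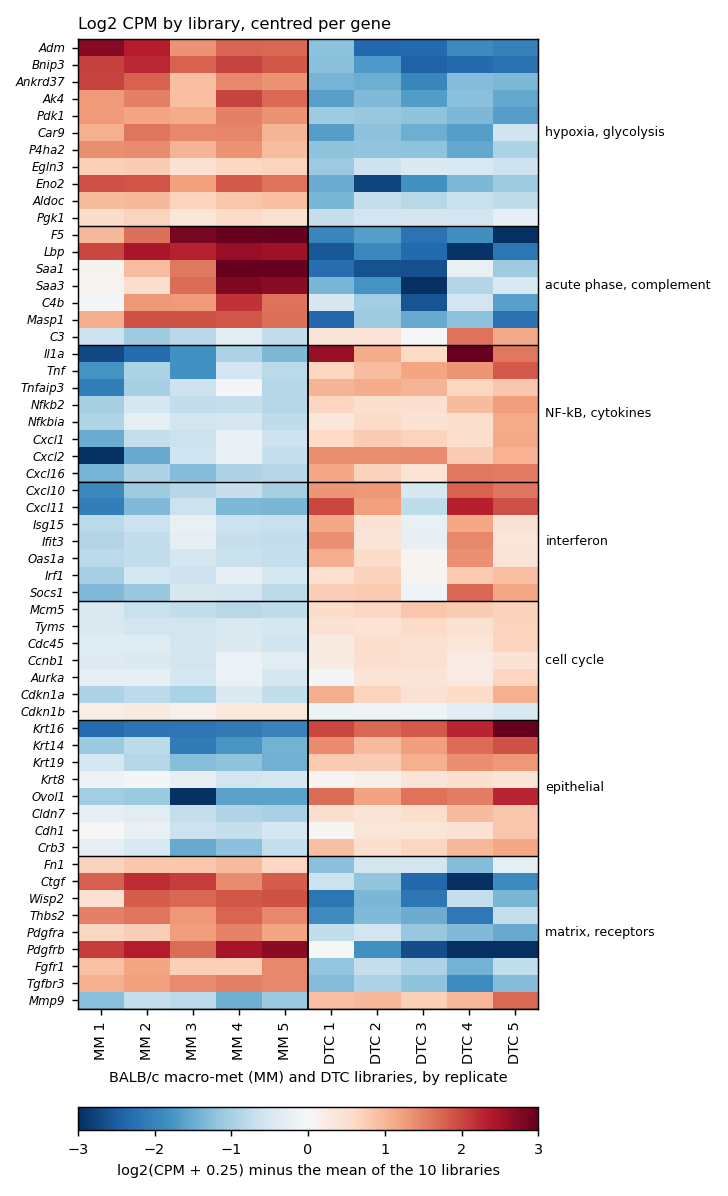
Log2(CPM + 0.25) of 57 genes in the 5 macro-mets (MM, left) and 5 DTC (right), less each gene's mean over the 10 libraries; red is above and blue below that mean, capped at 3. Hypoxia, acute phase, and matrix and receptor genes were red in macro-mets except C3 and Mmp9, interferon genes were palest in DTC 3, and Pdgfrb was higher in DTC 1 than in the other DTC.

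Replication and division genes were lower in macro-mets. Of 38 DNA replication genes 32 fell and 0 rose (median -0.62). Mcm5, a subunit of the replicative helicase, had 248, 212, 203, 190 and 198 CPM in macro-mets, against 492, 515, 597, 569 and 544 CPM in DTC. The groups were well apart, and tumours were lower still at 118 CPM on average (-1.37 ± 0.15, adjusted p = 4.23e-08). Tyms (-1.03 ± 0.15), which makes thymidylate, and Cdc45 (-0.92 ± 0.13), a partner of the helicase, fell as well. Pcna, the sliding clamp, fell less, to 330 ± 22.5 CPM in macro-mets, against 463 ± 26.1 CPM in DTC (-0.49 ± 0.12). With macro-mets 1 and 4 alone 16 of the replication genes were called, and Pcna was not.

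Of 36 mitosis genes 30 fell and 0 rose (median -0.705), and this count was the more fragile. It was 20 without DTC 1 and DTC 2, 14 with the lung marker covariate, 18 and 19 on the log2 TPM scales and 1 with macro-mets 1 and 4 alone. Aurka, a spindle kinase, had 60.7, 60.7, 50.3, 64.4 and 51.3 CPM in macro-mets, against 70.5, 96.0, 95.2, 86.2 and 114 CPM in DTC (-0.68 ± 0.17, adjusted p = 0.00251). The lowest DTC lay close to the highest macro-met, without overlap, and the call was lost with macro-mets 1 and 4 alone. Mki67, the proliferation antigen, had 7.07, 5.73, 8.56, 20.0 and 13.3 CPM in macro-mets, against 61.9, 22.4, 50.7, 31.0 and 5.17 CPM in DTC. DTC 5 was below every macro-met although the other 4 DTC were above them all (-1.64 ± 0.39, adjusted p = 0.00199); the call was lost with only the 10 libraries, with the lung marker covariate and with macro-mets 1 and 4 alone. Among regulators, the inhibitor Cdkn1b (p27) rose by 0.48 ± 0.10, to 108 ± 6.61 CPM in macro-mets, against 77.9 ± 8.12 CPM in DTC, and the inhibitor Cdkn1a (p21) fell by 1.55 ± 0.19 on the log2 scale. Myc, a driver of growth, rose by 0.96 ± 0.15 to 185 ± 16.9 CPM in macro-mets, against 94.8 ± 19.0 CPM in DTC. Of the 18 p53 targets, Cdkn1a and the BH3-only gene Bbc3 (-0.85 ± 0.22) among them, 7 fell and 1 rose.

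Of 15 keratins tested 9 fell and 1 rose (median -1.07); the one that rose was Krt4, not called with the lung marker covariate or with title number 57 alone, at 4.66 ± 4.15 TPM in macro-mets and 0.384 ± 0.284 TPM in DTC. Krt14, a basal keratin on chromosome 11 from 100203162 to 100207548, had 102, 128, 51.2, 65.3 and 82.8 CPM in macro-mets, against 595, 426, 525, 702 and 832 CPM in DTC. The groups were well separated (-2.84 ± 0.29, adjusted p = 2.62e-08). Krt16, a keratin of stressed epidermis from the same cluster, had 2.99, 3.28, 3.33, 3.45 and 3.80 CPM in macro-mets, against 64.4, 52.6, 57.4, 77.8 and 127 CPM in DTC. Its macro-mets were closely grouped (-4.49 ± 0.74, adjusted p = 3.96e-05). In BALB/c tumours Krt16 ran from 4.95 to 65.5 CPM, and this spread enters the SE because the fit covers all groups. Krt19 averaged 114 ± 30.3 CPM in macro-mets and 490 ± 96.2 CPM in DTC (-2.11 ± 0.18, adjusted p = 2.20e-10), and Krt15 (-1.87 ± 0.34) and Krt7 (-0.87 ± 0.14) fell too. The basal keratin gene Krt5 was not called, at 23.1 ± 9.38 TPM in macro-mets and 12.4 ± 1.83 TPM in DTC. Per length, Krt8 and Krt18 stayed the most abundant, at 4171 ± 391 and 3919 ± 661 TPM in macro-mets and 5786 ± 517 and 4067 ± 331 TPM in DTC. By edgeR Krt8 fell (-0.58 ± 0.14, adjusted p = 0.00164) and Krt18 was not called (-0.16 ± 0.12, adjusted p = 0.343), though it was called lower with the lung marker covariate (-0.51).

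Junction and identity genes of epithelium fell in 14 of 34 and rose in 0 (median -0.52). Cdh1, which encodes E-cadherin, averaged 289 ± 62.0 CPM in macro-mets and 504 ± 102 CPM in DTC (-0.80 ± 0.16, adjusted p = 0.000185). Cldn7, a claudin of tight junctions, had 33.3, 31.7, 23.8, 21.0 and 19.9 CPM in macro-mets, against 54.5, 51.6, 56.7, 75.6 and 68.6 CPM in DTC (-1.24 ± 0.15). No library crossed over. Ovol1, a transcription factor that holds the epithelial state, had 4.06, 3.88, 0.877, 2.68 and 2.65 CPM in macro-mets, against 27.9, 20.2, 27.1, 25.6 and 43.2 CPM in DTC, with macro-met 3 lowest (-3.33 ± 0.43, adjusted p = 9.50e-07). The polarity gene Crb3 (-1.71 ± 0.27), the trafficking GTPase gene Rab25 (-1.47 ± 0.28) and the membrane protease gene St14 (-0.98 ± 0.17) fell as well. Epcam was not called (-0.56 ± 0.23, adjusted p = 0.0681), but it was called lower under 7 of the 22 alternatives (-0.99 to -0.57), among them DESeq2, limma voom, RLE scaling and leaving out macro-met 1. Alveolar marker RNA, given above, was higher in every DTC than in every macro-met, and its part in these falls was not tested.

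Of 20 mesenchymal regulators 6 rose (30%) and 2 fell (10%), against 16.6% and 14.2% of all genes (median 0.12). The falls numbered 4 without DTC 3. Fn1, fibronectin, was the most abundant of the genes that rose, at 13023, 13971, 14168, 15595 and 12406 CPM in macro-mets, against 3336, 5501, 5459, 3262 and 6669 CPM in DTC. All macro-mets were above all DTC (1.51 ± 0.18, adjusted p = 1.07e-07). Sparc (0.84 ± 0.13), a collagen-binding matricellular protein, and the transcription factor genes Twist1 (0.73 ± 0.18) and Snai1 (0.69 ± 0.17) rose, and so did Foxc1, to 156 ± 17.7 CPM in macro-mets, against 55.1 ± 8.37 CPM in DTC. Twist1 and Snai1 lost their calls with the lung marker covariate and with macro-mets 1 and 4 alone.

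**Figure D4:**
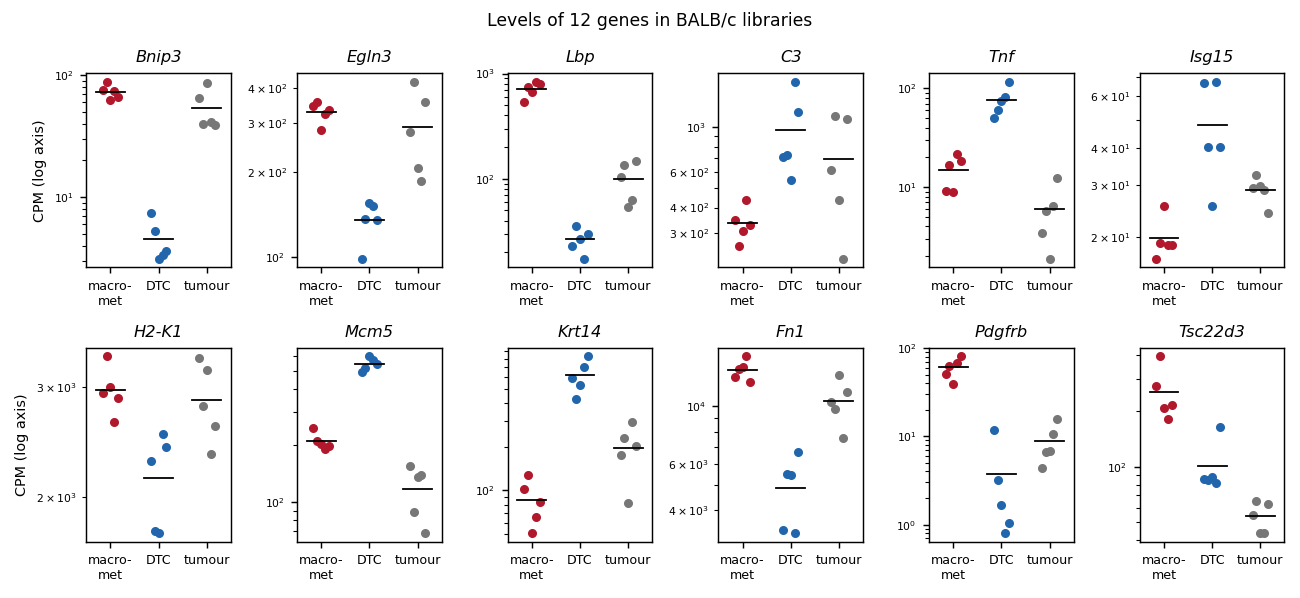
CPM (log axes that differ between panels) of 12 genes in BALB/c macro-mets, DTC and tumours; each point is a library and the bar is the mean of 5. Bnip3, Egln3, Lbp, Fn1, Pdgfrb, H2-K1 and Tsc22d3 were higher in all macro-mets than in all DTC, C3, Tnf, Mcm5 and Krt14 lower, and Isg15 was lower too, with 1 DTC level with the highest macro-met.

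Secreted matricellular and vessel-directed factors rose. In that list 13 of 24 rose and 5 fell (median 0.83), the falls being 3 without DTC 1 and DTC 2. Ctgf, a matricellular protein and a textbook target of the Hippo effector YAP, had 163, 220, 196, 124 and 165 CPM in macro-mets, against 30.0, 20.3, 8.96, 4.76 and 12.4 CPM in DTC. The groups did not overlap (3.51 ± 0.32, adjusted p = 4.35e-09), and the change was 4.28 without DTC 1 and DTC 2. Wisp2, from the same CCN family, had 124, 321, 298, 331 and 343 CPM in macro-mets, against 20.0, 34.9, 20.0, 55.6 and 35.1 CPM in DTC, with macro-met 1 well below the other macro-mets (3.10 ± 0.33). The thrombospondin genes Thbs1 (1.56 ± 0.14) and Thbs2 (2.97 ± 0.36), the angiopoietin gene Angpt2 (2.66 ± 0.27), the placental growth factor gene Pgf (1.75 ± 0.17) and Vegfc (0.93 ± 0.17) rose. Spp1, osteopontin, rose by 0.89 ± 0.19 to 4983 ± 339 TPM in macro-mets, against 2499 ± 561 TPM in DTC. Lgals1, galectin-1, was the most abundant gene that fell, at 4109, 4071, 4690, 3455 and 3436 CPM in macro-mets, against 7950, 8633, 10139, 9910 and 5833 CPM in DTC, with DTC 5 nearest to the macro-mets (-1.10 ± 0.21, adjusted p = 0.000159).

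Of 17 YAP and TEAD targets and effectors 12 rose and 2 fell (median 0.59). Besides Ctgf these included Amotl2 (1.06 ± 0.18), an inhibitor in the same pathway, Cyr61 (0.91 ± 0.23), Ankrd1 (0.58 ± 0.18) and the effector genes Yap1 (0.55 ± 0.11) and Wwtr1 (0.81 ± 0.10). Cyr61 was not called with the lung marker covariate, and Ankrd1 was not called with macro-mets 1 and 4 alone. Collagens and their processing enzymes rose in 10 of 29 and fell in 1 (median 0.41). The non-fibrillar genes Col12a1 (2.78 ± 0.36, or 3.37 without DTC 1 and DTC 2), Col4a5 (1.63 ± 0.18) and Col8a1 (1.07 ± 0.16) rose, and so did the lysyl hydroxylase genes Plod1 (1.09 ± 0.25) and Plod2 (1.52 ± 0.29). The main fibrillar collagen genes were not called: Col1a1 stood at 56.8 ± 7.57 CPM in macro-mets and 32.8 ± 8.53 CPM in DTC (adjusted p = 0.163, but called with only the 10 libraries), Col1a2 at 9.46 ± 5.03 and 14.9 ± 10.3 CPM, and Col3a1 at 9.7 ± 5.33 and 17.1 ± 9.72 CPM. The Col1a2 change of -0.66 reversed in sign without DTC 1 and DTC 2, as given in the section on processing. Of matrix proteases and inhibitors 4 rose and 4 fell among 19 (21.1% each, against 16.6% and 14.2% of all genes). Mmp9, a gelatinase, had 103, 153, 141, 89.2 and 114 CPM in macro-mets, against 463, 479, 402, 492 and 802 CPM in DTC (-2.14 ± 0.25, adjusted p = 1.86e-07), while Mmp11 (1.57 ± 0.13) and the inhibitor Timp2 (0.99 ± 0.12) rose.

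Of 21 laminin and integrin genes 6 rose (28.6%) and 4 fell (19%), against 16.6% and 14.2% of all genes. Lamb1 (0.83 ± 0.13) and Lamc1 (1.07 ± 0.16), chains of the laminins found in most basement membranes, rose, and Lama3 (-1.22 ± 0.21) and Lamb3 (-1.16 ± 0.24), chains of a laminin that anchors epithelium, fell. Itgb5 rose by 1.10 ± 0.13, and Itga2 (-1.57 ± 0.31) and the epithelial Itgb6 (-1.71 ± 0.42) fell; Itgb6 averaged 0.641 ± 0.239 CPM in macro-mets and 2.12 ± 0.591 CPM in DTC, and its call was lost with macro-mets 1 and 4 alone.

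Among 33 genes of receptor tyrosine kinases, their ligands and feedback 12 rose and 5 fell (median 0.23). Pdgfrb had 51.0, 62.0, 39.0, 68.3 and 80.3 CPM in macro-mets, against 11.8, 3.22, 1.69, 0.807 and 1.05 CPM in DTC. DTC 1 was the highest of the DTC, and tumours averaged 8.78 CPM (4.02 ± 0.51, adjusted p = 6.96e-07; 5.65 without DTC 1 and DTC 2). Pdgfra had 171, 184, 260, 308 and 247 CPM in macro-mets, against 65.1, 72.6, 49.8, 43.1 and 37.8 CPM in DTC (2.12 ± 0.21, adjusted p = 6.67e-09). Both genes, and Dcn (4.37 ± 0.38), which encodes the matrix proteoglycan decorin, are also fibroblast and mural markers. In that marker list of 16, 3 genes rose (Pdgfra, Pdgfrb and Dcn) and 6 fell, or 2 without DTC 1 and DTC 2, and its summed level was 403 to 623 CPM in macro-mets, against 174 to 204 CPM in DTC 3 to 5, 340 CPM in DTC 2 and 634 CPM in DTC 1; the part of such cells in the result was not tested. Fgfr1 (2.00 ± 0.17) and the ligand gene Pdgfa (1.22 ± 0.10) rose, whereas Pdgfb (-1.31 ± 0.18), Erbb2 (-0.58 ± 0.15, not called with macro-mets 1 and 4 alone) and Erbb3 (-1.31 ± 0.27) fell. Exons of Pdgfa overlap an opposite-strand transcript for 26.1% of their length, and the strand setting of the counts is not given in the sources used here. Spry1, a feedback inhibitor of these receptors, rose by 1.64 ± 0.18.

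Of 31 TGF-beta and BMP genes 11 rose and 2 fell. Tgfbr3, the co-receptor betaglycan, had the smallest adjusted p of the genes named: it stood at 112, 124, 142, 151 and 144 CPM in macro-mets, against 21.2, 27.8, 22.6, 14.1 and 21.2 CPM in DTC (2.65 ± 0.15, adjusted p = 3.61e-13). The ligand genes Bmp7 (2.58 ± 0.21), Tgfb2 (1.74 ± 0.31) and Inhbb (1.55 ± 0.21) rose, and so did the receptor gene Tgfbr2 (0.66 ± 0.13) and the target Pmepa1 (1.24 ± 0.14). Wnt genes went both ways, with 10 of 27 higher (37%) and 6 lower (22.2%), against 16.6% and 14.2% of all genes. Wnt10a had 10.8, 12.1, 7.17, 8.25 and 6.89 CPM in macro-mets, against 70.6, 46.8, 52.8, 98.7 and 111 CPM in DTC (-3.07 ± 0.26, adjusted p = 2.20e-10), while Wnt9a (2.43 ± 0.21) and the receptor gene Fzd1 (1.44 ± 0.21) rose. In the Notch list 5 of 15 rose (33.3%) and 3 fell (20%). The receptor gene Notch2 (1.07 ± 0.18) and the target Hey1 (1.85 ± 0.44, or 2.49 without DTC 1 and DTC 2) rose. The ligand gene Jag1 (-1.11 ± 0.21) and Notch3 (-1.11 ± 0.34) fell, Notch3 not being called with either title number alone. Retinoid genes changed in 9 of 17, with 6 rises and 3 falls; the falls numbered 1 without DTC 1 and 5 without DTC 5. Cyp26b1, which degrades retinoic acid, rose by 3.21 ± 0.34, and Stra6, the retinol transporter, fell by 1.97 ± 0.34 on the log2 scale.

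The series title names glucocorticoids and Fas. Tsc22d3, the glucocorticoid-induced leucine zipper, had 272, 396, 209, 181 and 217 CPM in macro-mets, against 85.8, 84.7, 88.2, 81.3 and 163 CPM in DTC. DTC 5 stood well above the other DTC and below the lowest macro-met (1.34 ± 0.21). Fkbp5, a co-chaperone of the receptor, had 315, 325, 311, 253 and 286 CPM in macro-mets, against 132, 170, 169, 155 and 189 CPM in DTC (0.87 ± 0.12). Fkbp4, the co-chaperone with the opposite effect on the receptor, fell by 1.01 ± 0.12 on the log2 scale, to 259 ± 19.2 CPM in macro-mets, against 521 ± 49.5 CPM in DTC. Hsd11b1, which regenerates active glucocorticoid, rose by 1.79 ± 0.39, or by 2.77 without DTC 1 and DTC 2. Of 25 glucocorticoid-induced genes 5 rose and 1 fell, a share of rises close to the 16.6% of all genes. Sgk1 (0.25 ± 0.21, adjusted p = 0.395), Dusp1 (0.27 ± 0.29, adjusted p = 0.532) and Per1 (-0.44 ± 0.22, adjusted p = 0.134) were not called, though Per1 was called lower with only the 10 libraries. The receptor gene Nr3c1 had 11.7, 11.9, 16.7, 22.8 and 22.6 CPM in macro-mets, against 25.6, 17.9, 13.3, 14.7 and 7.80 CPM in DTC, with the highest and the lowest values both in DTC (0.11 ± 0.21, adjusted p = 0.737). With the lung marker covariate Nr3c1 was called higher (0.87).

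Fas, the death receptor on chromosome 19 from 34290666 to 34327772, had 10.1, 9.71, 11.1, 13.8 and 13.6 CPM in macro-mets, against 17.1, 15.7, 8.19, 16.7 and 14.1 CPM in DTC. Of the DTC, 4 were above every macro-met and DTC 3 was below every macro-met, and the difference was not called (-0.30 ± 0.22, adjusted p = 0.329). DTC 3 was also the DTC with the least Isg15, Ifit3 and Cxcl10. Of 17 death receptors and ligands 4 rose and 4 fell (23.5% each, against 16.6% and 14.2% of all genes). Tnfrsf21 rose (1.31 ± 0.24), and the TRAIL receptor gene Tnfrsf10b (-0.55 ± 0.16) and the initiator Casp8 (-0.49 ± 0.12) fell, both falls being lost with macro-mets 1 and 4 alone. Cflar, the inhibitor of caspase-8 activation, was not called (0.43 ± 0.18, adjusted p = 0.0735), but it was called higher under 9 of the 22 alternatives (0.45 to 1.02), among them limma voom, the lung marker covariate and leaving out DTC 1 and DTC 2 (0.74). In the BCL2 family 5 of 16 rose and 5 fell. The survival gene Bcl2 had 65.1, 57.9, 65.5, 85.6 and 75.4 CPM in macro-mets, against 47.0, 41.2, 44.7, 42.1 and 16.9 CPM in DTC (0.87 ± 0.19, adjusted p = 0.00101), and Bcl2l1 rose by 0.62 ± 0.14, not called with the lung marker covariate. The executioner Bak1 fell by 0.77 ± 0.12 on the log2 scale, to 119 ± 10.6 CPM in macro-mets, against 203 ± 25.5 CPM in DTC, and Bbc3 and Bad (-0.68 ± 0.13) fell as well, whereas Bid rose (0.60 ± 0.11). Bid and Bad share 17.7% and 20.5% of their exonic length with genes on the opposite strand.

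Stress and housekeeping groups changed in part. Hmox1, haem oxygenase, had 91.3, 107, 96.0, 125 and 111 CPM in macro-mets, against 14.5, 17.5, 17.5, 18.5 and 19.6 CPM in DTC (2.60 ± 0.22, adjusted p = 2.35e-10). No library crossed over. Gsr (1.04 ± 0.13), glutathione reductase, and Sod3 (1.82 ± 0.30), the extracellular superoxide dismutase, rose, within an antioxidant list where 8 of 27 rose and 7 fell. Heat shock genes fell in 8 of 18 and rose in 2, with 5 falls without DTC 1: Hsph1 fell by 2.20 ± 0.24 on the log2 scale and its activator Hsf1 by 0.85 ± 0.11. Immediate early genes fell in 8 of 24 and rose in 2, such as Atf3 (-1.45 ± 0.37) and Egr3 (-1.64 ± 0.40); falls were 3 with title number 57 alone and 2 with title number 58 alone. Lysosome and autophagy genes rose in 14 of 28 and fell in 0 (median 0.315), 9 without DTC 1 and DTC 2, among them Gpnmb (2.14 ± 0.36), Map1lc3b (0.63 ± 0.11), the autophagosome coat protein, and the protease gene Ctsb (0.58 ± 0.11).

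Nuclear-encoded genes of oxidative phosphorylation fell in 14 of 36 and rose in 0 (median -0.235): Cycs, cytochrome c, averaged 77.6 ± 4.08 CPM in macro-mets and 156 ± 19.4 CPM in DTC (-1.01 ± 0.12). Ribosome biogenesis genes fell in 9 of 25 and rose in 2, with Bop1 (-1.02 ± 0.11) and Rrp9 (-1.05 ± 0.15) falling. Of 44 cytosolic ribosomal proteins 6 fell (13.6%, near the 14.2% of all genes) and 0 rose; on the log2 TPM scales 4 rose. Cholesterol synthesis genes fell in 10 of 23 and rose in 0, among them Fdps (-0.70 ± 0.16) and Cyp51 (-0.71 ± 0.19), but the count was 2 with macro-mets 1 and 4 alone. Clock genes rose in 9 of 20 and fell in 2, with Hlf (3.39 ± 0.77), Per2 (0.89 ± 0.18) and Bhlhe41 (1.85 ± 0.16) among the rises. The hour at which mice were killed is not given in the sources used here.

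Some large changes were in none of these lists. The genes named here were taken only from calls without overlap between the groups, so the lack of overlap was fixed in advance. Slc6a2, the noradrenaline transporter, averaged 136 ± 22.3 CPM in macro-mets and 8.72 ± 1.91 CPM in DTC (3.96 ± 0.29, adjusted p = 5.53e-11). Islr (3.55 ± 0.23), a secreted leucine-rich repeat protein, was at 29.2 CPM in macro-mets and 2.49 CPM in DTC, and at 1.70 CPM in tumours. The death-associated kinase gene Dapk1 (3.42 ± 0.48, or 4.68 without DTC 1 and DTC 2), the cysteine protease inhibitor gene Ctla2a (3.22 ± 0.33), the Hedgehog co-receptor gene Boc (3.08 ± 0.31), the nuclear receptor gene Nr2f1 (2.87 ± 0.18) and the G protein gene Gnao1 (2.91 ± 0.20) rose. Among falls, Neurl3, a ubiquitin ligase, averaged 10.5 ± 2.9 CPM in macro-mets and 115 ± 37.3 CPM in DTC (-3.45 ± 0.25, adjusted p = 2.92e-11). Nppb (-3.37 ± 0.37), the natriuretic peptide precursor, the cholesterol sulfotransferase gene Sult2b1 (-2.67 ± 0.20) and the actin-severing Scin (-2.42 ± 0.21) fell too.

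The same comparison in NSG mice shared no library with this one. There 7765 genes (43.7%) were called, with 21.3% higher and 22.4% lower. Rises called in both hosts numbered 1699, which is 57.6% of the BALB/c and 45% of the NSG rises, and falls called in both numbered 946, which is 37.5% and 23.7%. Opposite calls were made for 403 genes. Across all 17774 genes, which are not independent replicates, the changes in BALB/c and NSG had a Pearson correlation of 0.379 and a Spearman correlation of 0.379. A difference between hosts in the late minus early change was called for 5002 genes (28.1%), and for 2010 (36.7%) of the BALB/c calls; with offsets for GC content and length it was called for 3204 genes.

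Of 31 hypoxia genes 4 had a called host difference, 3 of them higher and 1 lower in BALB/c, against 28.1% of all genes. Bnip3 changed by 4.00 in BALB/c and by 3.57 in NSG mice, with a host difference of 0.43 ± 0.43 (adjusted p = 0.493). The list median was 1.205 in BALB/c and 1.30 in NSG mice. Of 27 NF-kB genes 11 had a called host difference, 2 higher and 9 lower in BALB/c, and the list median was -0.79 in BALB/c and -0.01 in NSG mice. Those that differed included Nfkbia (-1.21 in BALB/c and 0.04 in NSG mice, adjusted p = 0.0025 for the difference), Nfkb2 (-1.55 and -0.46), Relb (-0.98 and 0.03) and Icam1 (-1.32 and 0.09). Tnfaip3 had no called difference (adjusted p = 0.266), and Tnf fell in both (-2.36 in BALB/c and -1.98 in NSG mice) without a called difference (adjusted p = 0.580). The class I genes H2-K1 and H2-D1 rose in both hosts, and less in BALB/c (0.47 and 0.54) than in NSG mice (1.18 and 1.26), a called difference of -0.72 for each. Fn1 rose more in BALB/c (1.51) than in NSG mice (0.76), with a called difference of 0.76. F5 rose by 5.25 in BALB/c and by 2.48 in NSG mice (difference 2.77, adjusted p = 0.0064), while Lbp rose by 4.75 in BALB/c and 5.23 in NSG mice without a called difference. In the BCL2 family 1 of 16 genes had a called difference higher in BALB/c and 7 lower, against 16.6% and 11.6% of all genes. Bcl2 (0.87 in BALB/c and -0.36 in NSG mice) was the higher one. Bak1 (-0.77 and 0.02) and Bad (-0.68 and 0.18) were among those lower. Of 17 death receptors and ligands 3 had a called difference higher in BALB/c and 2 lower. The glucocorticoid receptor gene Nr3c1 was not called in BALB/c (0.11) and fell in NSG mice (-1.71; difference 1.82, adjusted p = 0.00011), and Fas had no called difference (-0.30 and -0.65, adjusted p = 0.451). The largest host differences are given in the closing section.

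**Figure D5:**
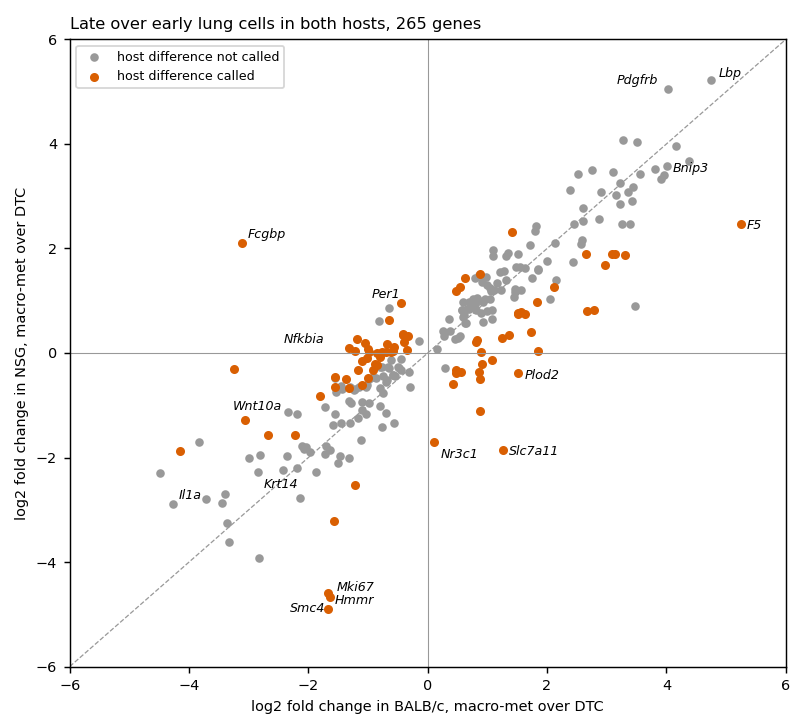
Log2 fold change, macro-met over DTC, in BALB/c (x axis) and NSG mice (y axis) for 265 genes that were chosen on the BALB/c values, so their scatter does not stand for all genes; orange marks the 83 with a called host difference and the dashed line is equality. Lbp, Bnip3 and Pdgfrb rose in both hosts without a called difference, Nfkbia and Fcgbp were at or above 0 in NSG mice although they fell in BALB/c, and Mki67, Hmmr and Smc4 fell further in NSG mice.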

How the data were processed

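RNA of sorted 4T1 cells was sequenced in 30 libraries, 6 groups of 5. The authors trimmed reads with Trimmomatic 0.36 and aligned them with STAR 2.5.2b to GRCm38 (mm10), per the submitters' processing notes; the counting tool, strand setting and annotation release are not given in the sources used here. The deposited values are a table of whole-number read counts per gene, not normalized, and the authors' TPM values, scaled by gene length and library. No molecular identifiers are recorded, so reads are not independent molecules.

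Counts were fitted with edgeR 4.0.16 in R 4.3.3 (filterByExpr by group, TMM scaling, robust quasi-likelihood) with 6 group means over all 30 libraries. Adjusted p-values are Benjamini-Hochberg values over 17774 genes, and a gene was called under 0.05. CPM are counts over the TMM-scaled library size. The fit was also run on simulated counts with a smaller spread between libraries than these data and no uneven lung RNA. That run cannot show how the fit performs under the conditions of these data. Alternatives were DESeq2 1.42.0 with its size factors, RLE scaling, no filter, limma 3.58.1 (voom, and log2 TPM with pseudocounts 1 and 0.1), the 10 libraries alone, offsets for GC and length (GENCODE M21, 17717 genes), a lung marker covariate, the macro-mets of each number in the titles (57 for macro-mets 2, 3 and 5, and 58 for macro-mets 1 and 4), leaving out DTC 1 and DTC 2, and leaving out each library. Gene positions are those of GENCODE M21. Motifs were searched on both strands in the RefSeq promoters of GRCm38.p6.

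The comparison and its gene lists were chosen with earlier results of these data known. The rule allowed these genes: the 15 largest rises and falls, and the 10 smallest adjusted p in each direction, among calls without overlap between groups and averaging log2 CPM 3 or more, outside the marker lists of other cells; any list member; Fas, Nr3c1, Tsc22d3, Fkbp5 and Per1; the 10 largest host differences; and the 5 most abundant called genes in each direction. Those printed were chosen from these after their values were seen. Some genes are not reported here.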

Additional observations from a re-analysis of the deposited data

Results flagged for a closer look

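In 142 groups of 5 libraries checked, 9 held a library far from the other 4 by Dixon's ratio; chance alone gives about 1 in 20. Of these, 4 came from DTC 5, which had 0.0859 CPM of F5, 710 CPM of Nfkbia, 163 CPM of Tsc22d3 and 16.9 CPM of Bcl2. From DTC 3 came 0.773 CPM of Ankrd37, 24.0 CPM of Cxcl10 and 8.19 CPM of Fas. Among macro-mets, Ovol1 was low at 0.877 CPM in macro-met 3 and Wisp2 at 124 CPM in macro-met 1.

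The change of macro-mets over DTC differed between hosts for 36 of 66 genes of the naming rule, by the interaction term in edgeR at an adjusted p under 0.05. Of these, 10 entered the rule through a called difference, so their calls were fixed in advance. Of all genes, 28.1% had a called difference. Differences are BALB/c minus NSG changes on the log2 scale. The largest host differences included genes that fell more in NSG mice than in BALB/c mice: Ranbp2 (3.34) and Tpr (3.29), nuclear pore proteins, Smc4 (3.24) and Smc6 (2.88), chromosome structure proteins, Mki67 (3.02), Ckap5 (2.97), a microtubule polymerase, and Hmmr (2.92), a spindle protein. Over the lists, 17 of 36 mitosis genes had a called difference higher in BALB/c and 0 lower, while DNA replication genes had 2 higher and 13 lower of 38. Of all genes, 16.6% had a called difference higher in BALB/c and 11.6% lower. The list counts were not repeated with the offsets for GC content and length. The cystine transporter gene Slc7a11 (3.11) and the glycosyltransferase gene C1galt1 (2.87) rose in BALB/c and fell in NSG mice, and Nr3c1 (1.82) was called lower in NSG mice and not called in BALB/c. With GC and length offsets, an alternative chosen after seeing the data, the differences were 2.31 for Ranbp2, 2.67 for Tpr, 2.52 for Smc4, 1.79 for Smc6, 2.60 for Mki67, 2.25 for Ckap5, 2.26 for Hmmr, 1.85 for Slc7a11, 1.94 for C1galt1 and -4.72 for Fcgbp, all still called. Across genes, which are not independent, the rank correlation between GC content and how far a library's log2 CPM lay from the average library was 0.056 to 0.389 in BALB/c macro-mets, 0.442 in DTC 5 and -0.095 to 0.186 in the other BALB/c DTC. This correlation was not computed for the NSG libraries, which enter the host differences as well.

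Other positive differences were 2.77 for F5, 1.43 for Serpine2, 1.24 for Galnt15, 1.19 for Boc, 0.87 for Wipi1, 0.87 for Spp1, 0.76 for Tgfbr3 and 0.76 for Fn1. Negative differences were -5.21 for Fcgbp, -2.29 for Serpina3g, -1.78 for Wnt10a, -1.39 for Per1, -1.10 for Sult2b1, -0.96 for Lgals1, -0.91 for Cystm1, -0.72 for H2-D1, -0.72 for H2-K1, -0.66 for Gcat, -0.65 for Cxcl16, -0.65 for Rplp0, -0.64 for Fkbp5, -0.62 for Krt8, -0.61 for Rpsa, -0.59 for Igfbp4, -0.50 for Tagln2 and -0.41 for Hspa8.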

How the results depend on the processing

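The main counts of 2949 rises and 2522 falls ranged from 2596 to 2980 rises and from 2113 to 2719 falls when 1 library was left out. With only the macro-mets of title number 58 they were 2630 calls, 1602 rises and 1028 falls. Of 265 genes checked under 22 alternatives each, 246 were called, 199 of them under every alternative, and 1 called gene, Lyz2, reversed (0.48 with the lung marker covariate). Of the uncalled genes, 9 became called under some alternative and 4 reversed: Col1a2 (0.33 with the lung marker covariate and 0.01 without DTC 1 and DTC 2), Col3a1 (0.14 with the covariate), Dusp1 (-0.34 with the covariate) and Nr3c1 (-0.06 without DTC 5 and 0.35 without DTC 1, and 0.87 with the covariate, where it was called). With GC and length offsets, chosen after seeing the data, the host difference was called for 3204 genes and was negative for 930 of them, against 5002 and 2060. The cause of these shifts was not tested. The removed libraries leave macro-mets 1 and 4 as 2 samples, whose spread is pooled with the other groups. No paired analysis was possible because the labels give no replicate number shared by the groups.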

Other observations

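Of 20 unfolded protein response genes 4 rose (20%) and 6 fell (30%) in macro-mets, against 16.6% and 14.2% of all genes: Calr, the lumenal chaperone calreticulin, had 901, 933, 966, 1045 and 921 CPM in macro-mets, against 1374, 1502, 1381, 1577 and 1658 CPM in DTC (-0.65 ± 0.11 by edgeR), while Sel1l, an adaptor for disposal of misfolded proteins, rose by 0.46 ± 0.10. Neither gene's groups overlapped. Of 25 ATF4 and amino acid genes 3 rose (12%) and 7 fell (28%), the falls numbering 5 with title number 57 alone, 4 with title number 58 alone. Enzymes of serine, asparagine and mitochondrial folate synthesis fell, namely Psat1 (-0.80 ± 0.14), Asns (-0.57 ± 0.13) and Mthfd2 (-1.32 ± 0.19), whereas the amino acid transporter genes Slc7a5 (0.76 ± 0.13) and Slc7a11 (1.26 ± 0.34) rose. Slc25a20, the carnitine carrier of fatty acid oxidation, rose by 0.81 ± 0.11 in a list where 4 of 17 rose and 0 fell. The metal importer gene Slc39a14 rose by 1.00 ± 0.15 and the checkpoint ligand gene Vsir by 0.79 ± 0.16.

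Macrophage markers changed in both directions, with 4 of 17 higher and 4 lower, or 2 lower without DTC 1 and DTC 2. The complement C1q genes rose at low levels: C1qc had 0.906, 2.56, 4.11, 5.52 and 2.46 CPM in macro-mets, against 1.27, 0.225, 0.401, 0.139 and 0.275 CPM in DTC (2.74 ± 0.56, or 3.48 without DTC 1 and DTC 2). The groups overlapped, since DTC 1 was above macro-met 1. C1qa rose by 2.39 ± 0.66, or 3.82 without DTC 1 and DTC 2, not called with macro-mets 1 and 4 alone. Lyz2, a lysozyme of myeloid and alveolar cells, fell by 3.24 ± 0.81 on the log2 scale, but by 0.66 without DTC 1 and DTC 2, which held 610 and 216 CPM; with the lung marker covariate the change was 0.48 and not called.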
